A study of Homo sapiens with 18 samples.

Results

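The expression of 8 genes of cholesterol synthesis and its control was followed in 2 human myeloma lines exposed to a ferroptosis inducer. The genes were chosen by symbol for their place in the pathway, with earlier results of these data known, and are HMGCS1, IDI1, FDFT1, SQLE, LSS and DHCR7, which encode enzymes of the pathway, INSIG1, which encodes its sterol-sensing brake, and SREBF2, which encodes the transcription factor SREBP2. All 8 were among the 43735 genes of the count table, and all 8 were among the 14281 genes that passed the filter on low counts. The libraries came from MM1S cells, which respond to glucocorticoids, and MM1R cells, the resistant line of the same origin. Each line was left untreated, exposed to RSL3 (5 µM, 3 h), or given Fer-1 (2 µM) 2 h ahead of the same RSL3 exposure. RSL3 inhibits GPX4, the enzyme that detoxifies lipid peroxides, and Fer-1 (ferrostatin-1) traps the radicals that spread lipid peroxidation. All cells were grown in medium with fetal bovine serum. Each of the 6 groups held 3 libraries, numbered by passage (4, 6 and 7 for MM1R, and 16, 22 and 23 for MM1S). Whether untreated cells received a solvent is not given in the sources used here, and cells given Fer-1 without RSL3 were not analysed here. The labels tell the replicates of a line apart by passage, so that the tests measure the spread between passages.

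Cells make cholesterol from acetyl-CoA through mevalonate, isoprenoid units, squalene and lanosterol. When sterols in the endoplasmic reticulum run low, SCAP carries SREBP2 to the Golgi, where proteases release its active part, which then raises transcription of the synthesis enzymes, of INSIG1 and of SREBF2 itself. When sterols are plentiful, INSIG proteins hold SCAP in the endoplasmic reticulum and the targets fall together. The same route supplies isopentenyl units for ubiquinone and for the tRNA that reads selenocysteine in GPX4, and 7-dehydrocholesterol, the substrate of DHCR7, is itself a radical-trapping sterol.

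Promoter sequences were searched for short elements. RefSeq windows of 300 bases on build GRCh38.p14, from 250 bases before to 50 after an annotated start site, were found for 6 of the 8 genes, with 10 windows in all. A window with a match is shown for HMGCS1, IDI1 and LSS, whose fall in cells given Fer-1 and RSL3 was called without any 1 library, and for SREBF2, the gene with the sterol regulatory element core. Only the 250 bases ahead of the start site are printed, 5′ to 3′ on the strand of the gene, and capitals mark CCAAT (or ATTGG, its reverse complement) and the sterol regulatory element core TCACNCCAC. The stretches are chr5:43313413-43313662 on the minus strand for HMGCS1, chr10:1048887-1049136 on the minus strand for IDI1, chr21:46228775-46229024 on the minus strand for LSS and chr22:41832855-41833104 on the plus strand for SREBF2.
HMGCS1: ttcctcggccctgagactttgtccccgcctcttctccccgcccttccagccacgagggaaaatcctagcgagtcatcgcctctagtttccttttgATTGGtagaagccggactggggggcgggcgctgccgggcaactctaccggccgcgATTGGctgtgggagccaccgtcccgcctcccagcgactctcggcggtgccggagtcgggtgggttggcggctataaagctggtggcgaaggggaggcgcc
IDI1: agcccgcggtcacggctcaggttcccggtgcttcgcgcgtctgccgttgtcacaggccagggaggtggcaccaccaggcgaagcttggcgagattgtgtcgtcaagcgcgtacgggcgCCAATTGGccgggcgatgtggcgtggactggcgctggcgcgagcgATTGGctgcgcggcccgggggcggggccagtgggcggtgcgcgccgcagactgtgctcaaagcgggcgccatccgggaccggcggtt
LSS: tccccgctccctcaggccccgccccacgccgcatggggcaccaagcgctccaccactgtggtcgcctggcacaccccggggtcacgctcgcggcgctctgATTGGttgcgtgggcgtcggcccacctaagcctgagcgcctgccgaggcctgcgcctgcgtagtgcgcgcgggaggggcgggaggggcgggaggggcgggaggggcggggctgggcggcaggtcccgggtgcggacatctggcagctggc
SREBF2: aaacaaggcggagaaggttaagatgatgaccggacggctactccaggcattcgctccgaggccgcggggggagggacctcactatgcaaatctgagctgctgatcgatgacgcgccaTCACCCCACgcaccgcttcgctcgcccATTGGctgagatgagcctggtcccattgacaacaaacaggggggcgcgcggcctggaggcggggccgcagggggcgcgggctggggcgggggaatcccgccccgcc
The SREBF2 stretch holds TCACCCCAC with its first base 133 bases before the start site, followed by ATTGG at 106 bases before it. The core was found in 1 of the 10 windows, and in 1.13% of all 35116 windows of the same length. Other forms of the element were not searched for, so that a window without this pattern cannot be said to lack one. CCAAT was found in 7 of the 10 windows and in 34.6% of all windows, with 2 copies 155 and 100 bases before the HMGCS1 start site and 1 copy 150 bases before that of LSS. In the IDI1 stretch, 2 of the 3 copies overlap, at 132 and 129 bases before the start site. GGGCGG, which Sp1 binds, was found in 9 of the 10 windows, against 45.0% of all windows. Windows of the same gene can overlap. Both strands were searched, and a match describes letters and not binding.

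Total counts per library were 17635438 to 19368343. All 8 plasma cell markers examined passed the filter, with a summed level of 4560 to 6204 CPM (counts scaled to a common library size of 1e+06). Of 8 markers of other blood cells, 3 passed, at a summed level of the whole list of 13.5 to 28.4 CPM, and 0 of 3 hepatocyte markers passed. NR3C1, the glucocorticoid receptor gene, measured 13.8 to 50.2 CPM in the MM1R libraries and 89.9 to 392 CPM in the MM1S libraries. The highest values were those of MM1R cells given both agents, replicate 2, and MM1S cells given RSL3, replicate 1. The next highest were 22.3 CPM in MM1R cells and 163 CPM in MM1S cells. Replicate 2 of the MM1R group with both agents stood apart, since genes specific to MM1S cells reached 48.0% of their MM1S level there. The same measure was -4.95 to 1.59% in the other 17 libraries, each set against the line it did not come from. The library of MM1S cells given RSL3, replicate 1, stood apart in its stress response, with 2298 CPM of HMOX1 (heme oxygenase 1) and 4321 CPM of HSPA6 (an inducible heat shock protein), against 310 to 434 and 64.5 to 82.8 CPM in the other two of its group. Values without these libraries are also given for several of the results that rest on them, though not for all. In such bulk libraries, fewer cells with a transcript and less of it per cell cannot be told apart.

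Levels of the genes were compared per kilobase of exon. In untreated cells of both lines INSIG1 was the highest, with 213 ± 23.6 CPM per kb in MM1R cells and 258 ± 41.8 in MM1S cells (SD, n = 3). SREBF2, IDI1, DHCR7, HMGCS1, SQLE, LSS and FDFT1 followed in that order, down to 0.427 ± 0.158 CPM per kb of FDFT1 in MM1R cells and 0.354 ± 0.0191 in MM1S cells. Ranges of neighbours in this order overlapped between SREBF2 and IDI1 and between DHCR7 and HMGCS1 in MM1R cells, and between SQLE and LSS in MM1S cells. FDFT1 rested on 19 to 53 counts per library, whereas each library held at least 399 counts of every other gene. FDFT1 (GRCh37, chromosome 8, 11653082 to 11696904, plus strand) shares exon positions with 1 antisense gene, and how reads in such overlaps were counted is not given in the sources used here. HMGCS1, IDI1, LSS and SREBF2 also overlap antisense genes, and IDI1 has 3 annotated pseudogenes, so that their counts may hold or lack shared reads.

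The first comparison asked whether RSL3 alone moved the pathway. LSS fell in the average of both lines, and the other 7 genes did not pass the test in either line or in the average. In MM1R cells 0 of 8 genes had a Benjamini-Hochberg adjusted p (FDR) under 0.05 by edgeR's quasi-likelihood test, against 3.36% of all genes tested, and in MM1S cells 0 of 8, against 3.67%. At an unadjusted p under 0.05 there were 0 genes in MM1R cells (18.5% of all genes) and 1, LSS, in MM1S cells (19.5% of all genes). When the change was averaged over both lines, LSS alone was called, against 15.5% of all genes, and LSS alone had an unadjusted p under 0.05, against 30.2%. A count of 1 in 8 is near the share of all genes called and below the share at an unadjusted p under 0.05. The test of the difference between the RSL3 effects in the lines called 0 of the 8 genes and 0% of all genes with edgeR, and 0 of the 8 had an unadjusted p under 0.05 there, against 1.55% of all genes.

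LSS encodes lanosterol synthase, which folds oxidosqualene into the ring system of the sterols. In MM1R cells it measured 50.3, 50.9 and 46.7 CPM untreated and 40.8, 45.3 and 44.5 CPM with RSL3, at passages 4, 6 and 7. In MM1S cells it measured 44.9, 53.0 and 47.9 CPM untreated and 29.1, 35.9 and 41.8 CPM with RSL3, at passages 16, 22 and 23. Every RSL3 library was below every untreated library of its line. The averaged log2 fold change was -0.31 ± 0.09 (SE), with an FDR of 0.0293 by edgeR's quasi-likelihood test, from -0.18 ± 0.13 in MM1R cells and -0.45 ± 0.13 in MM1S cells. Without replicate 1 of MM1S cells given RSL3, which had the lowest LSS level of its group, the averaged change was -0.25 and the FDR 0.0659, and the call held in 11 of the 18 fits that each left out 1 library (largest FDR 0.0800, edgeR). With the passage as a block, LSS was called in MM1S cells too (-0.46, FDR 0.00856, edgeR), as were 13.3% of all genes.

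HMGCS1 encodes the synthase that makes HMG-CoA, and IDI1 the isomerase of the isoprenoid units. HMGCS1 measured 126, 158 and 150 CPM in untreated MM1R cells and 126, 151 and 168 CPM with RSL3, and in MM1S cells 102, 134 and 132 CPM untreated and 128, 97.9 and 104 CPM with RSL3. IDI1 measured 144, 186 and 183 CPM in untreated MM1R cells and 154, 186 and 193 CPM with RSL3, and in MM1S cells 130, 156 and 162 CPM untreated and 155, 103 and 122 CPM with RSL3. The groups overlapped in both lines for both genes, and at passage 16 of MM1S cells both were higher with RSL3 while at passages 22 and 23 both were lower. The fitted 95% intervals of the averaged log2 change ran from -0.29 to 0.16 for HMGCS1 and from -0.32 to 0.15 for IDI1.

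SQLE, the squalene epoxidase that takes the first oxygen-dependent step, and DHCR7, the reductase that turns 7-dehydrocholesterol into cholesterol, gave averaged log2 changes with RSL3 of -0.12 ± 0.13 and -0.16 ± 0.10 (SE). FDFT1, the squalene synthase, gave -0.18 ± 0.21 and SREBF2 gave -0.06 ± 0.08. None of these 4 passed the test. With RSL3, SQLE measured 61.6, 72.8 and 58.2 CPM in MM1R cells and 27.3, 22.1 and 29.1 CPM in MM1S cells, where it lay below the untreated range of 29.9 to 31.8 CPM. DHCR7 measured 155, 179 and 165 CPM in MM1R cells and 151, 159 and 155 CPM in MM1S cells, and overlapped the untreated libraries in both. SREBF2 stayed between 329 and 383 CPM in all 6 RSL3 libraries, and its interval was the narrowest of the 8, from -0.23 to 0.10. The few reads of FDFT1 gave 2.06 to 2.58 CPM with RSL3 in MM1R cells, against 1.30 to 2.89 CPM untreated, and 1.01 to 1.60 CPM in MM1S cells, against 1.72 to 1.91 CPM.

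INSIG1 varied most between libraries. It measured 730, 877 and 725 CPM in untreated MM1R cells and 899, 799 and 1282 CPM with RSL3, and in MM1S cells 777, 1078 and 967 CPM untreated and 2330, 558 and 605 CPM with RSL3. The RSL3 libraries of MM1S cells thus lay on both sides of the untreated range, and those of MM1R cells overlapped it. The highest INSIG1 level in each line belonged to the RSL3 library with the most HMOX1. That gene measured 1404 CPM in replicate 3 of MM1R cells and 2298 CPM in replicate 1 of MM1S cells. Replicate 3 of MM1R cells given both agents had more HMOX1, 1463 CPM, and the lowest INSIG1 of its line, 415 CPM. In MM1S cells given both agents, replicate 1 had 1220 CPM of HMOX1 and the lowest INSIG1 of its line, 354 CPM. Whether the stress response had a part in INSIG1 was not tested. The fitted log2 change was 0.35 ± 0.40 in MM1R cells and 0.31 ± 0.40 in MM1S cells (SE), with FDRs of 0.711 and 0.731 by edgeR's quasi-likelihood test. Without replicate 1 of MM1S cells given RSL3 the change in that line was -0.69 (FDR 0.211, edgeR) and the averaged change turned from 0.33 to -0.17.

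**Figure D1:**
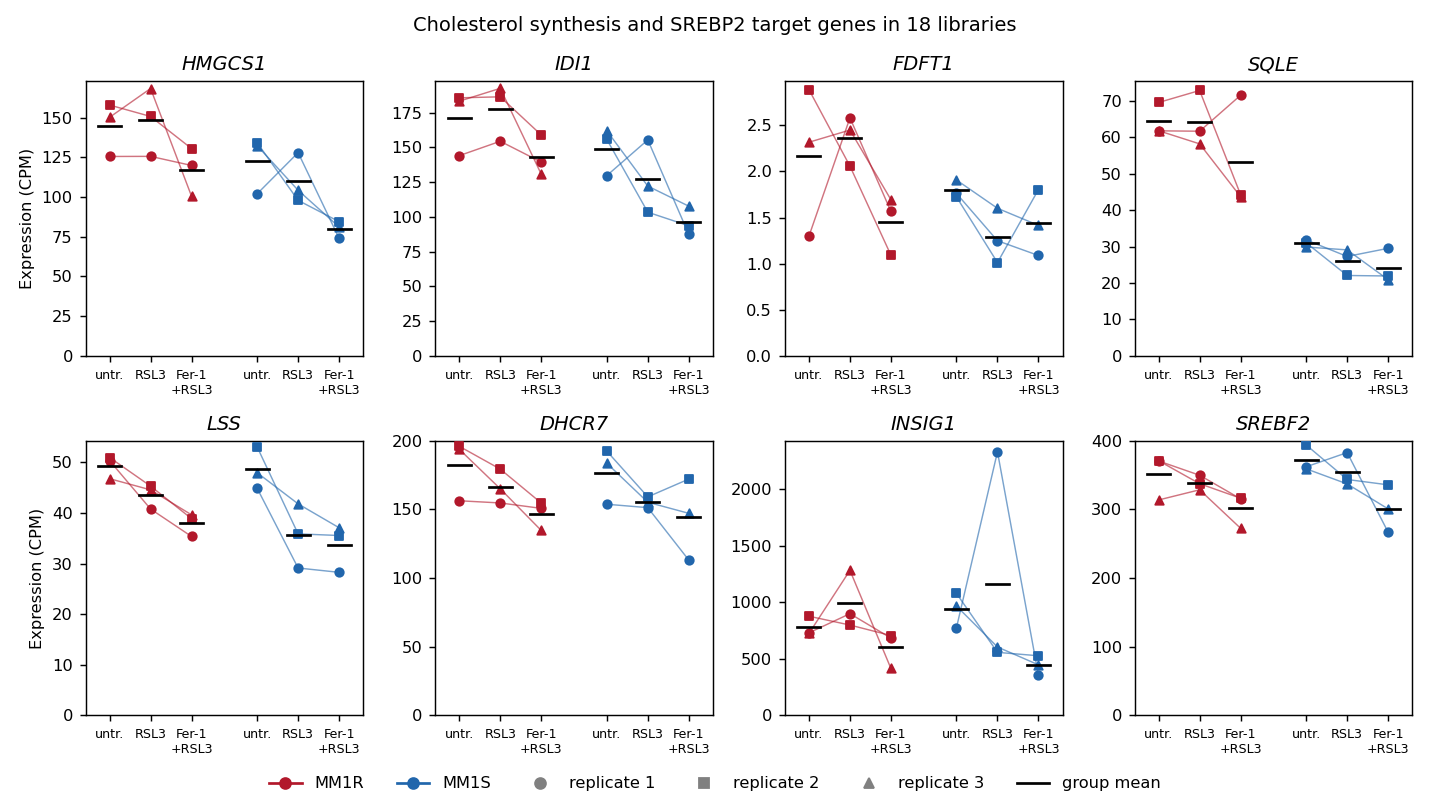
Expression of the 8 genes in CPM on linear axes that start at 0, for each library of untreated, RSL3 and Fer-1 with RSL3 groups; lines join libraries of the same passage and black bars are group means of 3 libraries. Most genes are lowest in the Fer-1 and RSL3 group of each line, SQLE is higher in MM1R cells, and INSIG1 reaches 2330 CPM in a single MM1S library given RSL3.

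The second comparison set cells given Fer-1 and RSL3 against untreated cells. All 8 genes had a fitted change below 0 in both lines, and averaged over both lines 5 of 8 fell, namely HMGCS1, IDI1, LSS, DHCR7 and SREBF2. The averaged count was 3 without replicate 2 of untreated MM1R or MM1S cells or replicate 3 of the MM1R group with both agents, and HMGCS1, IDI1 and LSS stayed called without any 1 library. All genes tested were called in 19.0% of cases and fell in 8.47%. In MM1S cells 3 of 8 fell, HMGCS1, IDI1 and LSS, against 4.61% of all genes called and 2.02% that fell. That count was 0 without replicate 2 or 3 of untreated MM1S cells or without replicate 1 or 2 of MM1S cells given both agents. In MM1R cells 0 of 8 were called, against 9.22% of all genes called and 3.66% that fell. At an unadjusted p under 0.05 there were 2 genes in MM1R cells (24.6% of all genes), 6 in MM1S cells (18.8%) and 8 in the average (32.4%). The median log2 change over all genes tested was 0.00 in the average.

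HMGCS1 measured 120, 131 and 100 CPM with both agents in MM1R cells, and 74.1, 84.5 and 81.2 CPM in MM1S cells. The MM1S values all lay below the lowest untreated value of that line, 102 CPM, whereas in MM1R cells the groups overlapped. The log2 change was -0.62 ± 0.15 in MM1S cells (SE; FDR 0.0231, edgeR's quasi-likelihood test), -0.31 ± 0.15 in MM1R cells (FDR 0.210) and -0.46 ± 0.10 in the average (FDR 0.00508). IDI1 measured 139, 159 and 131 CPM in MM1R cells and 87.5, 93.6 and 108 CPM in MM1S cells. Its MM1S libraries were all below the untreated ones, and its MM1R libraries overlapped them. Its log2 change was -0.63 ± 0.15 in MM1S cells (FDR 0.0258, edgeR), -0.26 ± 0.15 in MM1R cells (FDR 0.314) and -0.44 ± 0.11 in the average (FDR 0.00855).

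LSS measured 35.3, 38.9 and 39.6 CPM with both agents in MM1R cells and 28.3, 35.5 and 37.1 CPM in MM1S cells. These libraries were all below the untreated ones in both lines. The log2 change was -0.53 ± 0.13 in MM1S cells (SE; FDR 0.0269, edgeR's quasi-likelihood test), -0.38 ± 0.13 in MM1R cells (FDR 0.0788) and -0.46 ± 0.09 in the average (FDR 0.00248). With the passage as a block, the MM1R change was also called (-0.38, FDR 0.0103, edgeR), as were 22.2% of all genes.

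DHCR7 measured 156, 196 and 194 CPM in untreated MM1R cells and 151, 155 and 135 CPM with Fer-1 and RSL3, and in MM1S cells 154, 192 and 184 CPM untreated and 113, 172 and 147 CPM with both agents. The groups were separate in MM1R cells and overlapped in MM1S cells. The averaged log2 change was -0.30 ± 0.10 (SE; FDR 0.0384, edgeR), and without replicate 2 of the MM1R group with both agents it was -0.32 with an FDR of 0.0512, so that 4 of 8 genes were called in place of 5. The DHCR7 call held in 8 of the 18 fits that each left out 1 library (largest FDR 0.0963, edgeR). With the passage as a block the MM1R change of DHCR7 was called (-0.31, FDR 0.0428, edgeR). SREBF2 measured 371, 371 and 314 CPM in untreated MM1R cells and 315, 316 and 273 CPM with both agents, and in MM1S cells 362, 394 and 359 CPM untreated and 267, 336 and 301 CPM with both. Its MM1S groups were separate and its MM1R groups overlapped, with an averaged log2 change of -0.26 ± 0.08 (SE; FDR 0.0214, edgeR), a call that held in 14 of those 18 fits. With the block, its MM1S change of -0.30 was called as well (FDR 0.0304, edgeR), with 14.7% of all genes.

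SQLE, FDFT1 and INSIG1 did not pass the test in this comparison. SQLE measured 71.5, 44.2 and 43.7 CPM with both agents in MM1R cells, against 61.7, 69.5 and 61.7 CPM untreated, and 29.5, 21.9 and 20.9 CPM in MM1S cells, against 31.8, 31.0 and 29.9 CPM. In MM1R cells replicate 1 was above the untreated range and the other two below it, and in MM1S cells all libraries were below the untreated ones. Its averaged log2 change was -0.32 ± 0.13 (SE; FDR 0.0907, edgeR). Without replicate 2 of MM1R cells given both agents, the library with MM1S-specific transcripts, it was -0.26, and with the passage as a block it was -0.33 (FDR 0.0414, edgeR), a fit that called 33.3% of all genes. INSIG1 measured 684, 706 and 415 CPM in MM1R cells and 354, 528 and 448 CPM in MM1S cells, all below every untreated library of the line. Its averaged log2 change was -0.73 ± 0.28 (SE; FDR 0.0830, edgeR). The FDR was 0.00194 (edgeR) without replicate 1 of MM1S cells given RSL3, a library that enters this comparison only through the estimate of the spread. Of the 18 fits that each left out 1 library, only this 1 called INSIG1 (largest FDR 0.166, edgeR). FDFT1 measured 1.09 to 1.69 CPM in MM1R cells and 1.09 to 1.80 CPM in MM1S cells, overlapping the untreated libraries, and gave -0.45 ± 0.21 (FDR 0.153, edgeR).

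Every library with both agents lay below every untreated library for 3 of 8 genes in MM1R cells (LSS, DHCR7 and INSIG1), against 14.1% of all genes, and for 6 of 8 in MM1S cells (HMGCS1, IDI1, SQLE, LSS, INSIG1 and SREBF2), against 13.6%. Within passages, 22 of 24 pairs of a gene and a passage were lower with both agents in MM1R cells and 23 of 24 in MM1S cells. With RSL3 alone, every library lay below every untreated one for 1 of 8 genes in MM1R cells (LSS), against 12.3% of all genes, and for 3 of 8 in MM1S cells (FDFT1, SQLE and LSS), against 12.3%, and 13 of 24 and 20 of 24 pairs were lower. Lower in every passage were 2 and 4 of the 8 genes with RSL3 in MM1R and MM1S cells, against 25.5 and 26.7% of all genes, and 6 and 7 with both agents, against 26.2 and 30.1%. The comparisons share the untreated libraries, and whether RSL3 alone and both agents differ is the subject of the third comparison. The pairs of a gene and a passage share libraries, and the genes vary together, so that their counts are a description. The share of such pairs that were lower over all genes is not given here. The share of counts from the mitochondrial ribosomal RNAs RNR1 and RNR2 moved with this comparison, from 0.583 to 0.897% in untreated MM1R cells to 1.03 to 1.29% with both agents, and from 0.407 to 0.687% to 0.776 to 1.39% in MM1S cells, and its part in the result was not tested.

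**Figure D2:**
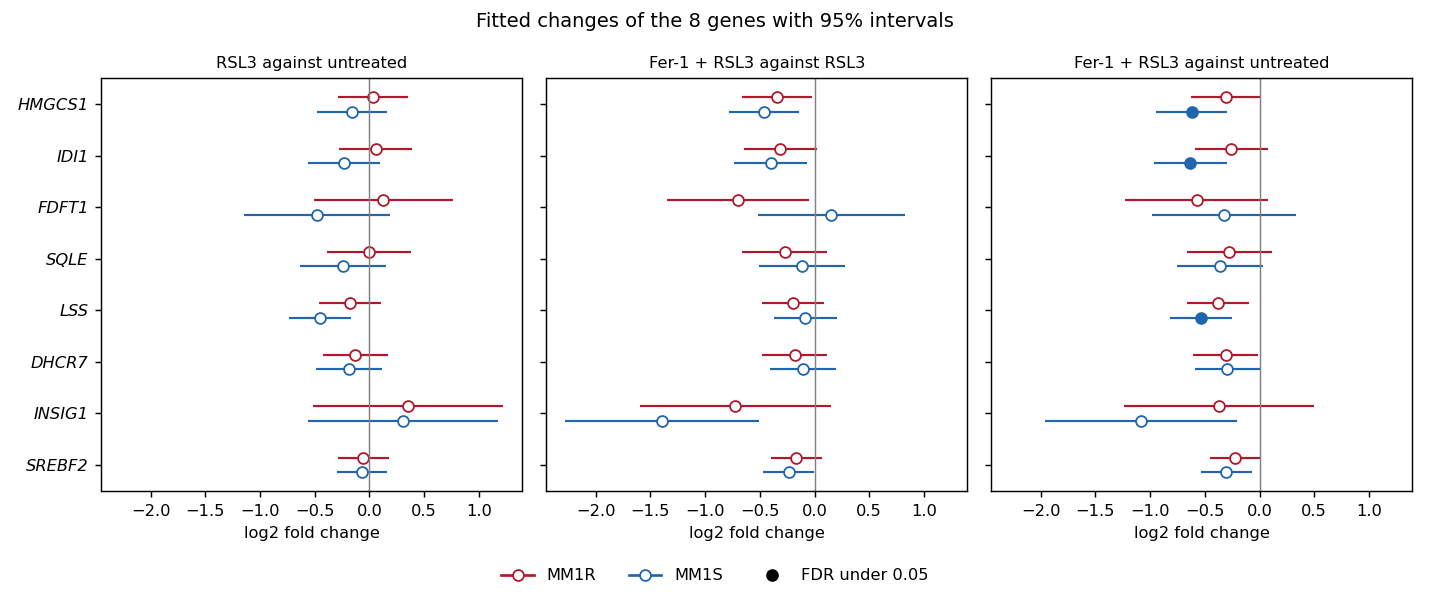
Fitted log2 fold changes with 95% intervals for the 8 genes in each line; filled points had an FDR under 0.05 by edgeR's quasi-likelihood test. With Fer-1 and RSL3 against untreated cells all 16 points lie below 0 and HMGCS1, IDI1 and LSS are filled in MM1S cells, while with RSL3 alone 0 points are filled, and 7 of 8 MM1S points, but not INSIG1, lie below 0, with an interval of -0.73 to -0.17 for LSS.

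The third comparison set Fer-1 and RSL3 against RSL3 alone, and asked whether Fer-1 changed the genes in RSL3-treated cells. It shares its libraries with the comparisons above. No gene was called: 0 of 8 in MM1R cells (0% of all genes), 0 of 8 in MM1S cells (0% of all genes) and 0 of 8 in the average, against 0.119% of all genes by edgeR's quasi-likelihood test. At an unadjusted p under 0.05 there were 2 genes in MM1R cells, HMGCS1 and FDFT1, against 6.17% of all genes, 4 in MM1S cells, HMGCS1, IDI1, INSIG1 and SREBF2, against 5.75%, and the same 4 in the average, against 12.8%. DESeq2 called 1 of 8 genes in the average, HMGCS1 (log2 change -0.41, FDR 0.0272), and 1.73% of all genes.

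The largest fitted change was that of INSIG1, at -1.06 ± 0.28 on the log2 scale in the average (SE; FDR 0.136, edgeR), -0.72 ± 0.40 in MM1R cells and -1.39 ± 0.41 in MM1S cells. Without replicate 1 of MM1S cells given RSL3 the MM1S value was -0.39 and the average -0.56. HMGCS1 and IDI1 followed with averages of -0.40 ± 0.10 (FDR 0.119, edgeR) and -0.36 ± 0.11 (FDR 0.193, edgeR). In MM1S cells their log2 differences were largest at passage 16, that of the same replicate 1, at -0.79 for HMGCS1 and -0.83 for IDI1. At passages 22 and 23 they were -0.21 and -0.36 for HMGCS1 and -0.14 and -0.18 for IDI1. The HMGCS1 groups of MM1S cells did not overlap, with 97.9 to 128 CPM with RSL3 and 74.1 to 84.5 CPM with both agents. Nor did those of INSIG1 and SREBF2 in MM1S cells, or of FDFT1, LSS, DHCR7, INSIG1 and SREBF2 in MM1R cells. The share of all genes without overlap is not given here. Within passages, 23 of 24 pairs were lower with Fer-1 in MM1R cells and 21 of 24 in MM1S cells. Lower in every passage were 7 of the genes followed in MM1R cells, against 20.2% of all genes, and 5 in MM1S cells, against 16.6%. As above, the pairs share libraries, the genes vary together, and the counts are a description. HMOX1 was 237 to 1404 CPM with RSL3 and 685 to 1463 CPM with both agents in MM1R cells, and 310 to 2298 and 975 to 1220 CPM in MM1S cells, and its relation to INSIG1 was not tested.

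**Figure D3:**
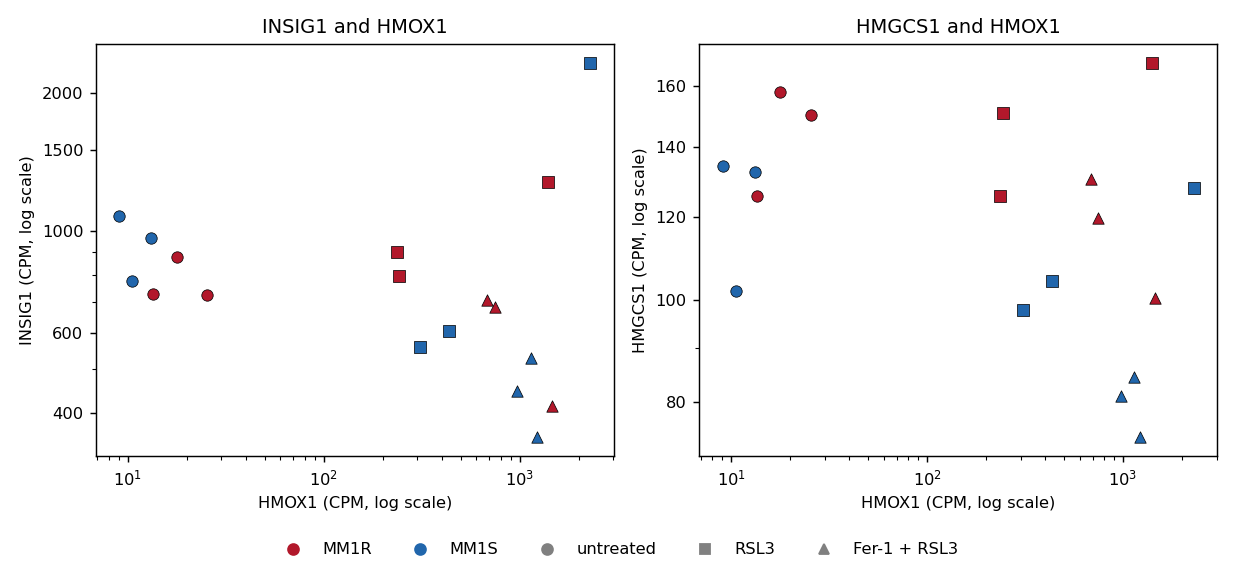
INSIG1 (left) and HMGCS1 (right) against HMOX1 in the 18 libraries, in CPM on log axes, with colour for the line and shape for the treatment. Untreated libraries lie at 9.09 to 25.4 CPM of HMOX1, and the MM1R and MM1S libraries with the highest INSIG1 are the RSL3 libraries with 1404 and 2298 CPM of HMOX1. The Fer-1 and RSL3 libraries are at 415 to 706 CPM of INSIG1 in MM1R cells and 354 to 528 CPM in MM1S cells. Their HMOX1 is 685 to 1463 CPM in MM1R cells and 975 to 1220 CPM in MM1S cells.

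Untreated MM1R and MM1S cells differed in 1 of the 8 genes. SQLE measured 61.7, 69.5 and 61.7 CPM in MM1R cells and 31.8, 31.0 and 29.9 CPM in MM1S cells. The groups were far apart, with a log2 difference of 1.06 ± 0.18 (SE; FDR 0.00148, edgeR's quasi-likelihood test), or 2.08-fold. Of all genes tested 10.5% were called between the lines, and 4.64% also differed more than 2-fold, as SQLE did. The count of 1 in 8 genes is near the share of all genes called. The other 7 genes gave log2 differences of -0.27 to 0.27 and did not pass the test. The line difference of SQLE was called without each library in turn, with an FDR of at most 0.0101 (edgeR). The passages of the lines also differ, so that line and passage number cannot be told apart.

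Genes of the same pathways were grouped into lists. Of 21 enzymes of mevalonate and sterol synthesis, all tested, 5 fell and 0 rose with RSL3 in the average, where 6.81% of all genes fell and 8.70% rose, with a median log2 change of -0.10 against 0.00 over all genes. Besides LSS these were MVK, the mevalonate kinase (-0.59 ± 0.10, SE; FDR 0.00122, edgeR's quasi-likelihood test), MSMO1, the methylsterol monooxygenase (-0.66 ± 0.14; FDR 0.00453), NSDHL, a sterol dehydrogenase (-0.47 ± 0.14; FDR 0.0297) and MVD, the mevalonate diphosphate decarboxylase (-0.32 ± 0.11; FDR 0.0476). With Fer-1 and RSL3 against untreated cells 9 of 21 fell and 0 rose, where 8.47% of all genes fell and 10.5% rose, 19 of 21 had a change below 0, and the median was -0.32. The list includes HMGCS1, IDI1, FDFT1, SQLE, LSS and DHCR7. Of these, HMGCS1, IDI1, LSS and DHCR7 are among the 9 that fell, so the list partly repeats the result of the 8 genes. MVK, MSMO1, NSDHL and MVD are also among the 9. They had been named for their RSL3 result, and since both comparisons use the same untreated libraries, their values here are no separate evidence, nor are those of genes named in the other lists. These values were -0.46 ± 0.10 for MVK (FDR 0.00454, edgeR), -0.75 ± 0.14 for MSMO1 (FDR 0.00123), -0.55 ± 0.14 for NSDHL (FDR 0.00971) and -0.47 ± 0.11 for MVD (FDR 0.00492).

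Of 12 regulators and processing factors of SREBP, 1 rose and 1 fell with RSL3, and 0 rose and 5 fell with Fer-1 and RSL3 against untreated cells. This list includes SREBF2 and INSIG1, and SREBF2 is among the 5 that fell. The shares called of all genes, 15.5% with RSL3 and 19.0% with both agents, apply to this list and to the next ones, and the 2 of 12 called with RSL3 are near the first. The calls with RSL3 in the uptake, liver X receptor and isoprenoid lists below are near it too. RNF139, a ubiquitin ligase that restrains SREBP processing, rose with RSL3 (0.46 ± 0.13; FDR 0.0238, edgeR) and gave 0.09 ± 0.13 with both agents (FDR 0.686). SCAP, the escort of SREBP2, fell with RSL3 (-0.23 ± 0.07; FDR 0.0449) and with both agents (-0.28 ± 0.07; FDR 0.0118, edgeR). Of 9 genes of sterol uptake and transport, 8 were tested, 1 fell with RSL3 and 2 fell with both agents. MYLIP, a ubiquitin ligase that liver X receptors induce, gave -0.37 ± 0.09 with RSL3 (FDR 0.0130, edgeR) and -0.62 ± 0.09 with both agents (FDR 0.000285).

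Of 10 fatty acid synthesis genes that SREBP1 controls, 1 rose and 3 fell with RSL3, and 1 rose and 4 fell with both agents. FASN, the fatty acid synthase, gave -0.67 ± 0.20 with RSL3 (FDR 0.0295, edgeR) and -0.83 ± 0.20 with both (FDR 0.00699), ACSS2, an acetyl-CoA synthetase, -0.35 ± 0.08 (FDR 0.00589) and -0.28 ± 0.08 (FDR 0.0168), and FADS1, a desaturase, -0.43 ± 0.13 (FDR 0.0341) and -0.49 ± 0.13 (FDR 0.0153). ME1, the malic enzyme that supplies NADPH, gave 0.32 ± 0.10 with RSL3 (FDR 0.0339, edgeR) and 0.34 ± 0.10 with both (FDR 0.0203). Of 11 genes of liver X receptor, oxysterol, esterification and efflux pathways 7 were tested, with 1 rise with RSL3, that of SOAT1, which esterifies cholesterol (0.27 ± 0.07; FDR 0.0228, edgeR), and 0 calls with both agents. Of 10 genes of the nonsterol isoprenoid branch 9 were tested, with 1 rise with RSL3 and 2 with both agents, and DHDDS, a subunit of the dolichol-making prenyltransferase, gave 0.30 ± 0.07 with RSL3 (FDR 0.00853, edgeR) and 0.31 ± 0.07 with both (FDR 0.00501).

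**Figure D4:**
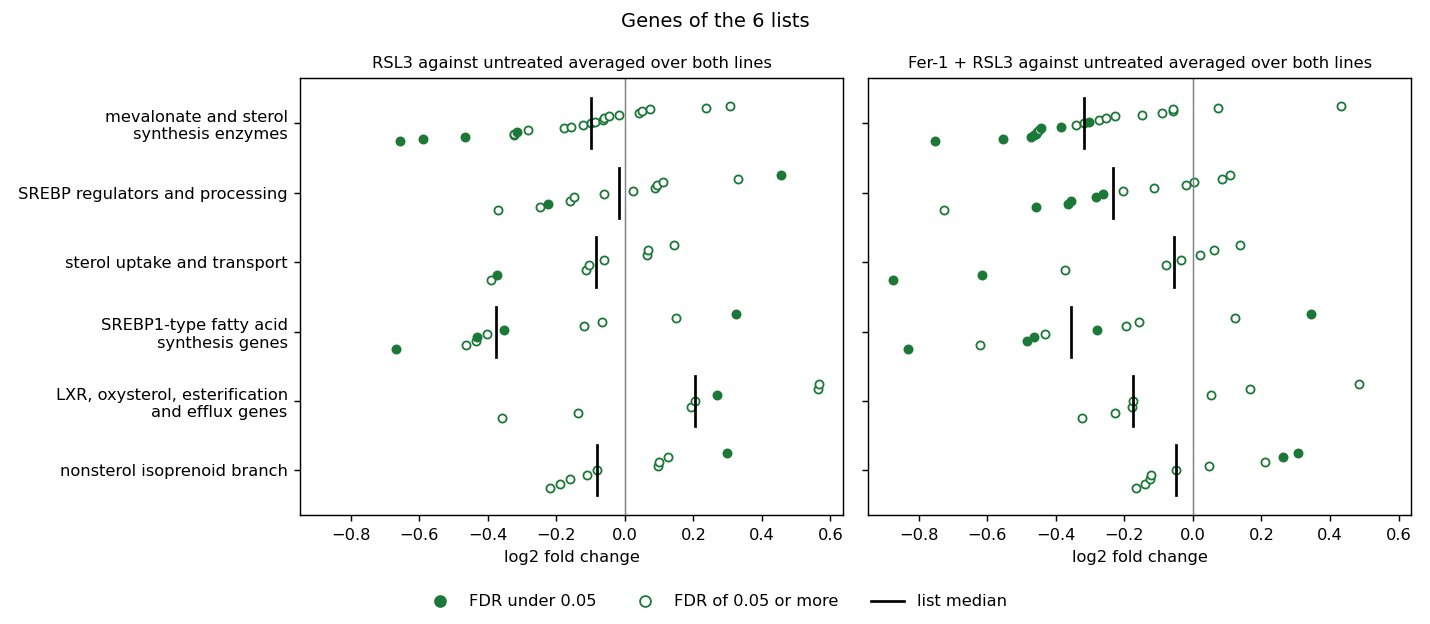
Log2 fold changes averaged over both lines for the tested genes of the 6 lists, with RSL3 (left) and with Fer-1 and RSL3 (right) against untreated cells; filled points had an FDR under 0.05 by edgeR's quasi-likelihood test and black bars are list medians. The sterol synthesis list has a median of -0.10 on the left and -0.32 on the right, and the fatty acid synthesis list of -0.38 and -0.36.

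Correlations between the 8 genes across libraries, each centred within its passage, were positive but uneven. Over the 18 libraries Pearson's r between HMGCS1 and IDI1 was 0.975, and the median r of a gene with the other 7 ran from 0.495 for FDFT1, the gene with the fewest counts, to 0.845 for SREBF2. The lowest values were those of INSIG1 with LSS (0.332), SQLE (0.353) and FDFT1 (0.364). Without replicate 1 of MM1S cells given RSL3 these were 0.738, 0.638 and 0.579. The libraries share treatments and depth, so these values are a description. Among the other genes most like the mean of the 8 were PMEPA1 (0.949), C11orf96 (0.923), NR1D1 (0.917), a clock repressor, and BMP6 (0.917), a secreted bone morphogenetic protein, with r in parentheses, against a 95th percentile of 0.659 over all genes tested. At the other end stood TULP3 (-0.931), ZNF226 (-0.919), ZNF558 (-0.917), RETREG3 (-0.912) and GOLGA5 (-0.910), against a 5th percentile of -0.688. The genes at both ends were picked for their r, so that the percentiles give a scale only.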

How the data were processed

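The authors sequenced 18 RNA samples on a BGISEQ-500 (paired ends, 50 bp), ran FastQC 0.11.5 and used STAR 2.7.3a with hg19, tools and versions that the submitters' processing notes also give. The counting tool, annotation and strand setting are not given in the sources used here. The authors deposited raw counts for 43735 genes and a normalized signal table for 29553 genes, where values are counts over a library-wide size factor (0.834 to 1.08).

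Raw counts were tested here with edgeR 4.0.16 (R 4.3.3), with TMM scaling (factors 0.864 to 1.06) and filterByExpr at a minimum count of 10, which kept 14281 genes. A single model of 6 group means over all 18 libraries left 12 residual degrees of freedom. Groups were compared by the quasi-likelihood test with Benjamini-Hochberg adjustment over all genes tested (FDR), in each line and averaged over both lines, and a gene was called at an FDR under 0.05. An FDR of edgeR is meant where no other tool is named. The steps were run on simulated data. Changes planted there for the tests were larger than those of the genes followed here, and passages were not simulated. That run thus does not show how well changes of the present size are found.

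Alternatives were DESeq2 1.42.0, RLE and upper-quartile scaling, no filter, a minimum count of 50, a log2 change over 1, only the libraries compared, limma 3.58.1 on log2 of the normalized signal plus 1, leaving out each library, and the passage as a replicate block. The labels give the passage, which pairs libraries of a line. Deviations of same-passage libraries from their group means correlated with a median of 0.250 over 9 MM1R pairs (0.0338 to 0.516) and 0.416 over 9 MM1S pairs (0.216 to 0.681).

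The genes and lists were chosen with earlier results of these data known. Besides the 8 genes, named are up to 5 called genes a list for RSL3 in the average, by FDR, the 5 genes most and least correlated with the mean log2 CPM (prior count 2) of the 8, and HMOX1, HSPA6 and NR3C1. Of these, 1 gene is not reported here. Gene positions and exon lengths are from GENCODE on GRCh37, and promoters from RefSeq.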

Additional observations from a re-analysis of the deposited data

How the results depend on the processing

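At an FDR under 0.05 alone, the calls that held in all 26 alternatives were those of HMGCS1, IDI1 and LSS for Fer-1 and RSL3 against untreated cells in the average and that of SQLE between the lines. The count of called genes changed with the setting in the comparisons below, and the cause of these changes was not tested. For RSL3 against untreated MM1S cells it was 1 in place of 0 with DESeq2, with the stricter filter and with the replicate block, and 0 to 1 without each library in turn. For RSL3 in the average it was 0 in place of 1 with a log2 change over 1 required, with no filter and when both libraries that stood apart were left out, a setting chosen after seeing the data, and 0 to 1 without each library in turn. For Fer-1 and RSL3 against RSL3 it was 1 in each line and 2 in the average with no filter, 1 in the average with DESeq2, and 0 to 1 in the average without each library in turn. The gene called in each line with no filter was INSIG1. Its FDR was then 0.000628 in MM1R cells and 3.68e-14 in MM1S cells (edgeR), against 0.833 and 0.783 in the main fit. With no filter 0.973 and 1.11% of all genes were called in these lines. For Fer-1 and RSL3 against untreated MM1R cells it was 1 with DESeq2, 2 with the replicate block, 1 with only the libraries compared, and 0 to 1 without each library in turn. For MM1S cells it was 0 in place of 3 with a log2 change over 1 required and with only the libraries compared, and 0 to 4 without each library in turn. In the average it was 0 in place of 5 with a log2 change over 1 required, and 3 to 6 without each library in turn, with 3 without replicate 2 of untreated MM1R or MM1S cells or replicate 3 of MM1R cells given both agents.

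Directions changed for values that did not pass the test, most of them near 0 but for INSIG1, whose main values with RSL3 were 0.31 in MM1S cells and 0.33 in the average. For RSL3 in MM1R cells, SQLE gave 0.00419 with upper-quartile scaling, 0.0106 with the stricter filter, 0.000147 with only the libraries compared and 0.00175 without both libraries that stood apart. Without each library in turn SQLE gave -0.11 to 0.0682, with -0.0601 to 0.14 for HMGCS1, -0.0562 to 0.15 for IDI1 and -0.14 to 0.39 for FDFT1. INSIG1 with RSL3 in MM1S cells gave -0.0175 with limma on the normalized values, -0.69 without both libraries and -0.69 to 0.64 without each in turn, and in the average -0.165 without both and -0.17 to 0.50 without each in turn. For Fer-1 and RSL3 against RSL3 in MM1S cells the ranges without each library were -0.0413 to 0.35 for FDFT1, -0.21 to 0.0490 for LSS and -0.25 to 0.0417 for DHCR7, and between the untreated lines -0.0357 to 0.10 for LSS and -0.0493 to 0.14 for DHCR7.

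With the replicate block, which pairs libraries by passage and leaves 8 residual degrees of freedom, 1, 2, 4 and 6 of the 8 genes were called for RSL3 in MM1S cells and for Fer-1 and RSL3 against untreated MM1R cells, MM1S cells and the average, in place of 0, 0, 3 and 5. The shares of all genes called rose too, to 13.3, 22.2, 14.7 and 33.3% from 3.67, 9.22, 4.61 and 19.0%. It changed no other count, and the difference between the lines could not be fitted with it. FDFT1, at 19 to 53 counts per library, had the widest error after INSIG1, so that an averaged change of -0.45 did not pass where -0.44 of IDI1 did.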
